A study of Sus scrofa domesticus with 16 samples.

Results

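INSIG1, SREBF1, SCD and their neighbours in fatty acid synthesis were read in the adrenal glands of 16 domestic pigs, each on its own porcine genome array. The genes were fixed by name as INSIG1, INSIG2, SREBF1, SCD, FASN, ACACA, ACLY, ELOVL6, FADS1 and ME1, and a probe set belonged to a gene where the platform annotation gave that gene as its symbol. Of the 10 genes, 9 had a probe set, among 6765 genes named on the array, and they held 18 of its 23999 probe sets besides controls. ACLY, which makes cytosolic acetyl-CoA from citrate, was not analysed here. The brightest probe set stands for its gene unless another is named.

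SREBF1 encodes SREBP-1, a transcription factor made as a membrane-bound precursor in the endoplasmic reticulum and released by cleavage in the Golgi, after which it turns on genes of fatty acid synthesis. INSIG1 and INSIG2 encode membrane proteins that hold the SREBP precursor and its escort SCAP in the endoplasmic reticulum when sterols are plentiful, and INSIG1 is itself a target of the SREBPs. FASN builds palmitate, ELOVL6 lengthens it, SCD and FADS1 introduce double bonds, and ME1 supplies the NADPH that synthesis uses. In the adrenal cortex the same factors bear on the supply of cholesterol, the starting material of cortisol, which is stored as esters of fatty acids.

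Pigs unknown to one another had been put together, and 8 animals from a mixing of low aggressiveness (low stress) were set against 8 from a mixing of high aggressiveness (high stress). The submitters chose the groups so that they differed in fighting and in plasma cortisol, so the comparison asks which adrenal transcripts went with that difference. Age, sex and breed are not stated in the labels, no animal carried a stated genetic change, both groups had been mixed with strangers, and no unmixed animals are among the samples. Each sample is a separate animal by its number, and animals are numbered 1 to 8 within a group here.

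The values are signals on a log2 scale, on which a difference of 1 is a doubling, and levels of different probe sets were not set against each other. Median signals of the arrays lay between 116 and 147. The arrays fell into 2 sets of 8, each with 4 animals of either stress group, by the added control transcript dap, whose mean signal was 516 to 721 in one (low-spike) and 3261 to 4826 in the other (high-spike). Actin, compared at its 3' and 5' ends as a sign of RNA length, gave ratios of 9.97 to 21.9 on low-spike and 5.28 to 8.80 on high-spike arrays. The same ratio was 6.40 to 21.9 in low stress and 5.28 to 15.1 in high stress, and in a fit with this ratio and the spike-in set as terms the stress differences of INSIG1 and SCD were 0.73 and 0.45. Of all 14399 probe sets tested, 40.1% differed between the sets with limma at an adjusted p under 0.05, so values within each set are given beside the results. Adrenal identity was checked on STAR and CYP11A1 of the cortex, with means of 14.85 and 14.41, and on PNMT and CHGB of the medulla, with means of 13.60 and 14.31.

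None of the genes passed the test for a difference between stress groups, and neither did any other probe set on the array. Mean signals of INSIG1, SCD, FASN, ELOVL6, FADS1 and ME1 were higher in high stress, by 0.12 to 0.68, and those of SREBF1 and INSIG2 differed by -0.17 each. On the whole array 41.6% of probe sets had a higher mean in high stress. Counted as genes with 1 probe set each, as here, 2739 of 5455 did. Of the 18 probe sets, 13 had a mean signal above the filter on low values (log2 6.15), and these covered 8 genes. Of the 13, 0 were called at an adjusted p under 0.05 with limma, against 0 of 14399 probe sets, or 0%, on the whole array. Of the 13, 2 had an unadjusted p under 0.05, as did 3.19% of all probe sets. These 2 were INSIG1 and SCD, both with higher means in high stress, a direction in which 1.27% of all probe sets had such a p, against 1.92% in the other. With the spike-in set as a block, limma called 1 of 14399 probe sets (0.00694%) and 0 of the 13. The animal numbers share 4 first digits, whose meaning the labels do not give, and each first digit in each spike-in set held 1 animal of either stress group. The labels do not make these 8 matched pairs. In them the high stress animal had the higher signal in 7 for INSIG1, SCD, FASN, FADS1 and ME1. It did so in 5 for ELOVL6, in 4 for SREBF1 and in 3 for INSIG2. The same count was not made for the whole array. Each gene, FASN and ME1 among them, was read on its brightest probe set alone. On the second ME1 probe set high stress animals 1, 2, 3 and 6 were the lower of their pairs and the others the higher. With the 8 pairs as a block, a fit chosen after seeing the data, limma called 0 probe sets, and the adjusted p was 0.476 for INSIG1 and 0.477 for SCD. The ranges of the stress groups overlapped for all 13 probe sets, and they did not overlap for 0.0208% of the array.

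**Figure D1:**
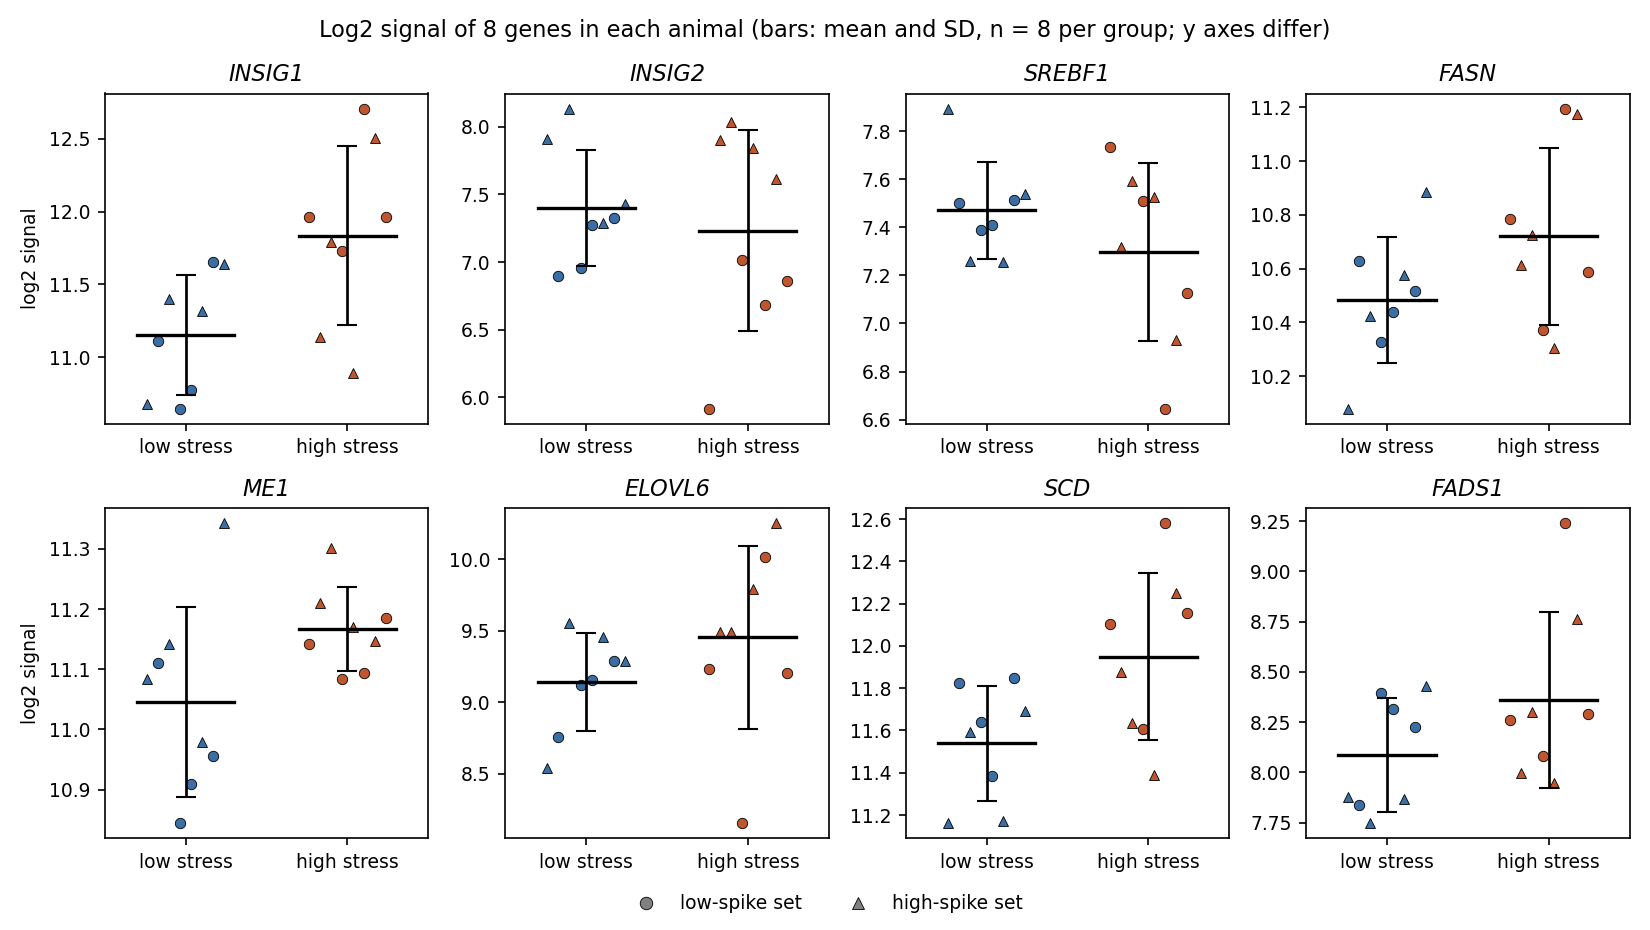
Log2 signal of the 8 tested genes, brightest probe set each, in every animal (points), by stress group, with the group mean and SD (bar and whiskers) and with the spike-in sets marked by symbol. The ranges of the groups overlap for each gene, and high stress animals 6 and 7 are the 2 highest for INSIG1, SCD, FASN, FADS1 and ELOVL6.

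The log2 signal of INSIG1, the sterol-dependent anchor of the SREBP precursor, ran from 10.65 through a median of 11.21 to 11.65 in low stress and from 10.89 through 11.88 to 12.71 in high stress. The 5 highest low stress animals lay within the high stress range, and 6 of 8 high stress animals were above the low stress mean. The means were 11.15 ± 0.41 and 11.83 ± 0.61 (SD, n = 8 each), a difference of 0.68 (SE 0.24, 95% confidence interval 0.17 to 1.20, 1.61-fold). With limma the unadjusted p was 0.012, which ranked 94 among 14399 probe sets, and the adjusted p was 0.999. The spread of INSIG1 over the animals, once group means were subtracted, was at the 82.9th percentile of the array.

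The difference in INSIG1 was 1.04 (SE 0.27) among the low-spike arrays and 0.33 (SE 0.34) among the high-spike arrays. In limma with an interaction term the high-spike minus the low-spike value was -0.72 (SE 0.47, unadjusted p = 0.147), and 0 of the 14399 such terms on the array passed adjustment. Within the low-spike set the 4 high stress animals lay at 11.73 to 12.71 and the 4 low stress animals at 10.65 to 11.65, without overlap, as was so for 4.53% of all probe sets in that set. Without high stress animals 6 and 7, the 2 highest of all 16, the difference was 0.43. A second INSIG1 probe set had a mean of 5.55, below the filter, with means 0.33 higher in high stress and no test.

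INSIG2, the paralogue that also retains SCAP, ran from 6.89 through 7.31 to 8.14 in low stress and from 5.92 through 7.31 to 8.03 in high stress. The medians were the same to 2 decimals, and the lowest value, 5.92, was that of high stress animal 1. The difference was -0.17 (SE 0.28, interval -0.75 to 0.42, adjusted p = 0.999 with limma), and it was 0.02 without that animal. On low-spike arrays it was -0.49 and on high-spike arrays 0.16. INSIG2 was the 1 gene of the 8 whose brightest probe set differed between the spike-in sets, with a mean 0.90 higher in the high-spike set (SE 0.18, adjusted p = 0.001 with limma). The pig reference also lists a pseudogene of INSIG2, and whether the probe set reads both could not be tested.

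SREBF1, the factor itself, lay between 7.26 and 7.90 in low stress, with a median of 7.46, and between 6.65 and 7.74 in high stress, with a median of 7.41. The low end of the high stress range came from animals 6, 7 and 8, at 6.65, 6.93 and 7.13, which were below all 8 low stress animals, and the other 5 lay within the low stress range. The means were 7.47 ± 0.20 and 7.30 ± 0.37 (SD, n = 8 each), a difference of -0.17 (SE 0.15, interval -0.49 to 0.14, adjusted p = 0.999 with limma). On low-spike arrays the difference was -0.20 and on high-spike arrays -0.15, and it was -0.00 without high stress animals 6 and 7. The platform names 1 probe set for the gene, and the signal does not separate the transcripts for SREBP-1a and SREBP-1c.

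SCD, the desaturase that makes oleate and palmitoleate, ran from 11.16 through 11.62 to 11.85 in low stress and from 11.39 through 11.99 to 12.58 in high stress. Of the 8 high stress animals 7 were above the low stress mean, and 5 were above the highest low stress animal. The means were 11.54 ± 0.27 and 11.95 ± 0.39 (SD, n = 8 each), a difference of 0.41 (SE 0.16, interval 0.06 to 0.76, 1.33-fold). With limma the unadjusted p was 0.023 (rank 207 of 14399) and the adjusted p 0.999. On low-spike arrays the difference was 0.44, on high-spike arrays 0.38, and 0.25 without high stress animals 6 and 7. The unadjusted p was 0.050 without low stress animal 1 and 0.053 without high stress animal 6.

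**Figure D2:**
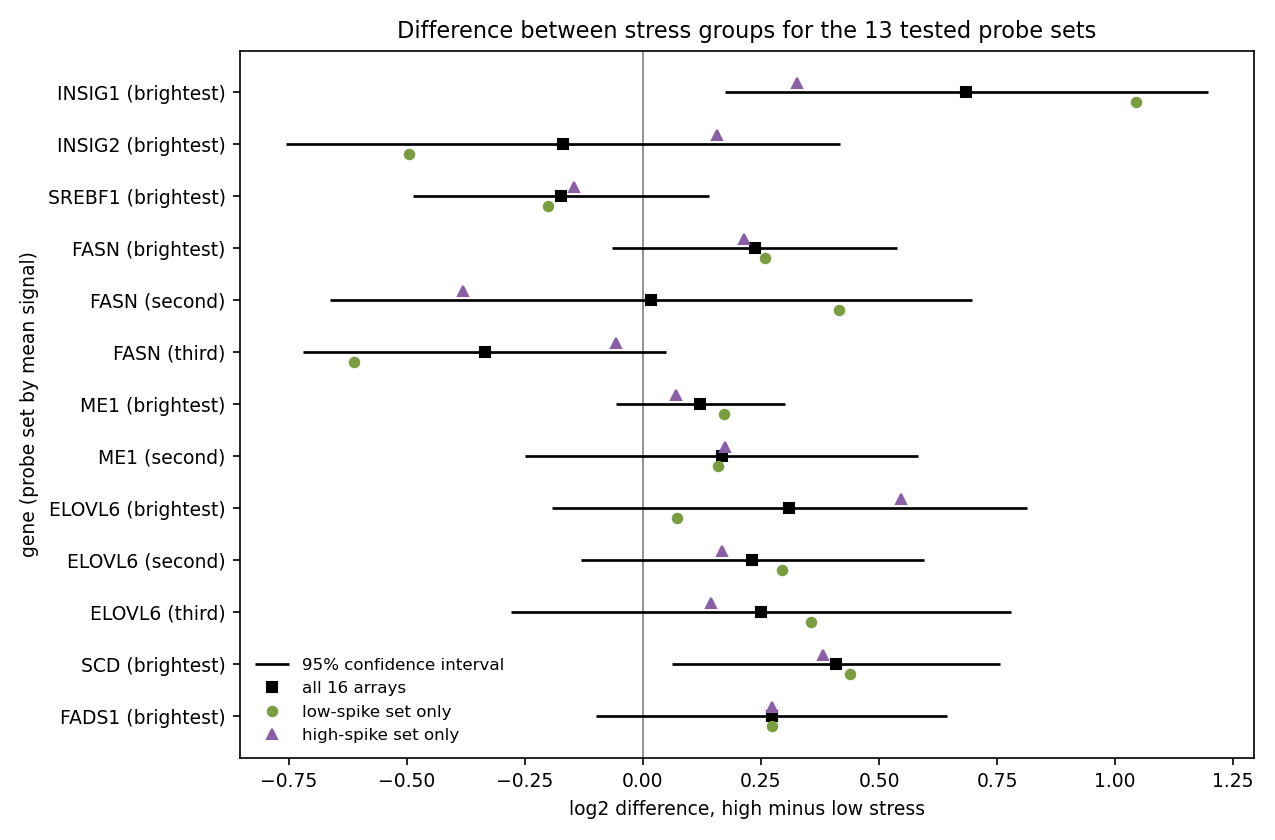
Log2 difference, high minus low stress, for the 13 tested probe sets (squares, with 95% confidence intervals from limma) and within the low-spike set (circles) and the high-spike set (triangles). Only the intervals of INSIG1 and SCD lie above 0, the INSIG1 values of the sets are 1.04 and 0.33, and the 3 FASN probe sets lie at 0.24, 0.02 and -0.34.

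FASN, fatty acid synthase, was read by 4 probe sets that disagreed. On the brightest, signals ran from 10.08 through 10.48 to 10.88 in low stress and from 10.31 through 10.67 to 11.20 in high stress. The difference was 0.24 (SE 0.14, interval -0.07 to 0.54, adjusted p = 0.999 with limma), with 0.26 and 0.22 in the low- and high-spike sets. On the next brightest it was 0.02, with 0.42 and -0.38 in the sets, and on the one after that it was -0.34 (SE 0.18). High stress animal 6 was the highest of the 16 on the brightest probe set, at 11.20, and the lowest on the latter, at 5.63. The faintest was below the filter, with a difference of -0.03. Over all 4 probe sets the mean difference was -0.03, so the direction for FASN depends on the probe set read.

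ACACA, the acetyl-CoA carboxylase that commits carbon to fatty acids, was below the filter on both of its probe sets, with means of 4.94 and 3.11. The first had a difference of 0.13. On the second, signals ran from 2.84 to 5.65 in low stress and from 2.07 to 3.40 in high stress, a difference of -1.06, with 8 of 8 high stress animals below the low stress mean. Values this low on the array were not tested.

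ELOVL6, the elongase for palmitate, ran from 8.54 through 9.22 to 9.55 in low stress and from 8.15 through 9.49 to 10.25 in high stress. High stress held both the lowest animal (number 4) and the 2 highest (numbers 7 and 6). The difference was 0.31 (SE 0.24, interval -0.19 to 0.81, adjusted p = 0.999 with limma), with 0.07 on low-spike and 0.55 on high-spike arrays. Its other probe sets had differences of 0.23, 0.25 and 0.53, the last of them below the filter.

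FADS1, the delta-5 desaturase of polyunsaturated fatty acids, ran from 7.75 through 8.05 to 8.43 in low stress and from 7.95 through 8.27 to 9.24 in high stress. Only high stress animals 6 and 7, at 9.24 and 8.76, lay above the highest low stress animal. The difference was 0.27 (SE 0.18, adjusted p = 0.999 with limma), the same in both spike-in sets, and 0.06 without those 2 animals.

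ME1, malic enzyme, varied little on its brightest probe set, with a spread at the 1.45th percentile of the array, but not on its second, at the 68.7th percentile. On the brightest it ran from 10.84 through 11.03 to 11.34 in low stress and from 11.08 through 11.16 to 11.30 in high stress. All 8 high stress animals were above the low stress mean of 11.05, but inside the low stress range. The difference was 0.12 (SE 0.09, interval -0.06 to 0.30, adjusted p = 0.999 with limma), and 0.17 on its second probe set. On that second probe set 5 high stress animals were above the low stress mean and 3 below it.

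High stress animals 6 and 7 stood at the ends of most of these genes. They were the 2 highest of 16 for 5 of the 8 genes (INSIG1, SCD, FASN, FADS1 and ELOVL6), a position the pair held for 1.35% of all probe sets tested. The pair was picked after its values for these genes were seen, and most of the 5 genes correlate with one another. The share is therefore no test of them. Animals 6 and 7 were also the 2 lowest for SREBF1. Number 6 was in the low-spike set and number 7 in the high-spike set. Their arrays had median signals of 118 and 129, where the sets ranged from 116 to 136 and from 129 to 147. Whether this low median bears on the values of the 2 animals was not tested. After subtraction of the set means, animal 6 stood at 1.14 for INSIG1, 0.69 for SCD and 0.91 for FADS1, and at -0.71 for SREBF1. Animal 7 stood at 1.08, 0.65 and 0.65 for the first of these, and at -0.49 for SREBF1. The SD was larger in high than in low stress for 7 of the 8 genes, ME1 being the exception, against 58.8% of all probe sets.

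**Figure D3:**
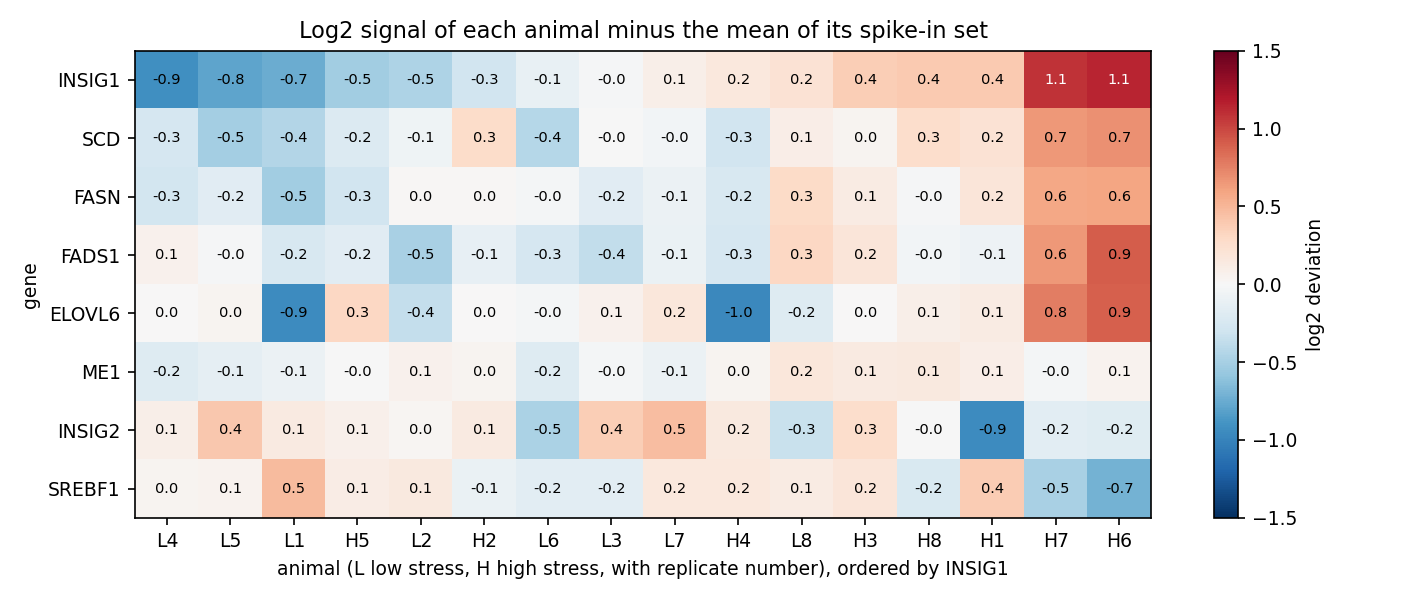
Heat map of the log2 signal of the 8 genes (brightest probe set each) in the 16 animals, as the deviation from the mean of the animal's spike-in set. High stress animals 6 and 7 are at 1.14 and 1.08 for INSIG1 and at -0.71 and -0.49 for SREBF1.

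The gland was sampled as bulk tissue, in which fewer cells of a type and less RNA per cell cannot be told apart. Fat around the gland is a possible source of lipogenic transcripts, so adipocyte markers were read beside the genes. Of 13 adipocyte markers 10 had a probe set and 7 were above the filter. ADIPOQ, LIPE and RETN were below it, at means of 4.23, 4.56 and 5.02, with untested differences of -1.95, 0.93 and 0.21. The mean of the others leaves these markers out, so it reads fat only in part. The mean of the 7 above the filter was 7.41 to 8.56 in low stress and 7.98 to 8.37 in high stress. The difference was -0.00 (exact permutation test, two-sided, p = 0.993 before and after adjustment over 7 marker lists). Animals 6 and 7 of high stress had adipocyte means of 8.04 and 8.15, inside the range of the other animals.

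The cortex list, 9 of 13 markers, had means of 12.71 to 13.16 in low stress and 12.89 to 13.15 in high stress (difference 0.03, exact permutation p = 0.660, adjusted p = 0.801). The chromaffin list, 6 of 12 markers, had 11.93 to 12.95 and 11.95 to 13.05 (difference 0.16, exact permutation p = 0.374, adjusted p = 0.801). Its markers were uneven, with GAL at a difference of 0.67, SCG2 at 0.18, and PNMT, DDC, CHGA and CHGB at -0.01 to 0.04. Fibroblast, endothelial and myeloid lists, and APOA1 for liver and kidney, differed by -0.06, -0.03, -0.12 and -0.09, also at an adjusted p of 0.801 by the exact permutation test. With the mean of the 7 adipocyte markers, without ADIPOQ and LIPE, as a covariate the difference was 0.68 for INSIG1 and 0.41 for SCD. With the chromaffin mean it was 0.67 and 0.36.

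INSIG1, SCD and FASN, the last on its brightest probe set, went up and down together from animal to animal. Over the 16 animals INSIG1 and SCD correlated at r = 0.81 (rho 0.71), INSIG1 and FASN at r = 0.84 (rho 0.74) and SCD and FASN at r = 0.78 (rho 0.74). After Benjamini-Hochberg adjustment over the 31 pairs computed, the permutation p-values for r were 0.002, 0.001 and 0.002, and those for rho 0.020, 0.017 and 0.017. Within the low-spike set the 3 values of r were 0.87, 0.79 and 0.90, and within the high-spike set 0.79, 0.94 and 0.82. Without high stress animals 6 and 7, the farthest from the INSIG1 and SCD medians, they were 0.63, 0.67 and 0.58. On the other FASN probe sets no pair passed. The next 2 by brightness correlated with INSIG1 at r = 0.46 and -0.33 (rho 0.46 and -0.19) and with SCD at r = 0.35 and -0.33 (rho 0.37 and -0.06). The faintest gave r = -0.18 with INSIG1 and -0.15 with SCD (rho -0.08 and 0.08). Over these 6 pairs the adjusted permutation p was 0.323 to 0.581 for r and 0.422 to 0.831 for rho. Within low stress r was 0.46 for INSIG1 and SCD, 0.73 for INSIG1 and FASN (brightest probe set) and 0.49 for SCD and FASN. Within high stress the same pairs had 0.84, 0.86 and 0.85. The permutations ran over all 16 animals, so differences between stress groups enter their p-values. Genes of an array share its scaling, and with quantile normalization or median centring in its place r for INSIG1 and SCD was 0.79 or 0.83.

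FADS1 followed the same animals, but mainly through the pair that stood apart. Its r was 0.69 with INSIG1, 0.73 with SCD and 0.75 with FASN (adjusted permutation p 0.010, 0.006 and 0.005). The rank correlations were lower, at 0.44, 0.54 and 0.53, with adjusted permutation p-values of 0.218, 0.162 and 0.162. Without animals 6 and 7 the values of r were 0.28, 0.39 and 0.41, so these relations rest on those 2 animals. Within low stress they were -0.01, 0.30 and 0.29, and within high stress 0.90, 0.84 and 0.91. Without animal 6 alone the adjusted p was 0.128 with INSIG1 and 0.095 with SCD. ELOVL6 correlated with FASN at r = 0.64 (rho 0.46, adjusted permutation p 0.022 and 0.195) and at 0.33 without that pair. That adjusted p was 0.073 without low stress animal 1, 0.095 without high stress animal 6 and 0.091 without high stress animal 7. With INSIG1 the r of ELOVL6 was 0.46 (rho 0.42, adjusted permutation p 0.127 and 0.218), and 0.64 (adjusted permutation p 0.023) without high stress animal 4.

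**Figure D4:**
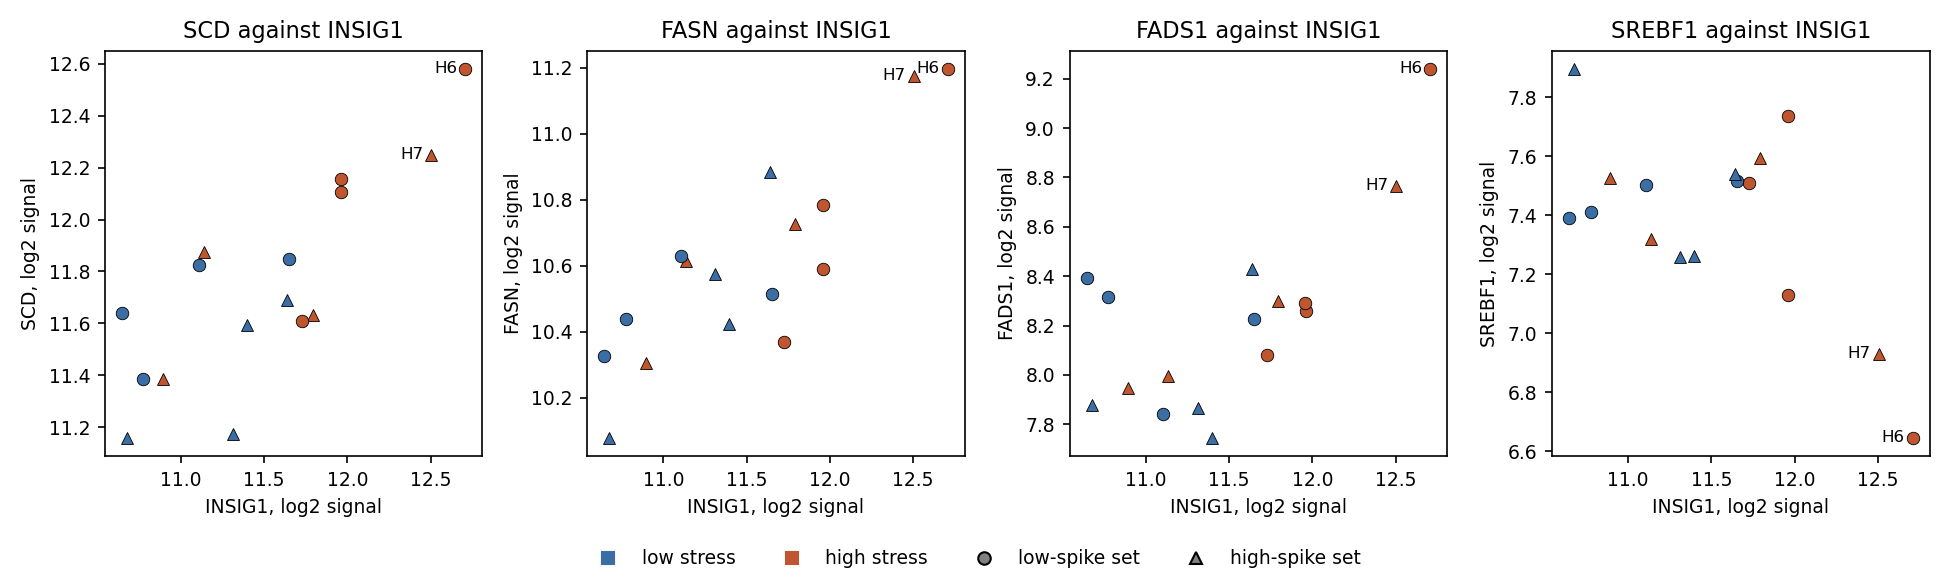
Log2 signal of SREBF1, SCD, FASN and FADS1 (vertical axes) against INSIG1 (horizontal axis) in the 16 animals, coloured by stress group and with the spike-in set by symbol. Animals 6 and 7 of high stress (H6 and H7) lie at the right of each panel. The correlation with SCD is 0.81 over all animals and 0.63 without them, and with SREBF1 it is -0.60 and -0.12.

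SREBF1 ran opposite to INSIG1, SCD, FASN, ELOVL6 and FADS1 by Pearson's r, while the rank correlations did not pass the test. With ME1 its r was 0.06 (rho 0.08). Only the brightest FASN probe set was set against SREBF1. With INSIG1 r was -0.60 (rho -0.28), with SCD -0.64 (rho -0.41), with FASN -0.65 (rho -0.28), with ELOVL6 -0.64 (rho -0.43) and with FADS1 -0.64 (rho -0.20). The adjusted permutation p-values were 0.022 to 0.025 for r and 0.218 to 0.481 for rho. Within the spike-in sets r with INSIG1 was -0.53 (low-spike) and -0.69 (high-spike), and r with SCD was -0.64 and -0.67. Without high stress animals 6 and 7 the values were -0.12 with INSIG1, -0.21 with SCD, -0.16 with FASN and -0.37 with ELOVL6, and 0.04 with FADS1. The relations of SREBF1 with INSIG1, SCD, FASN and FADS1 rest on those 2 animals, which were chosen for lying farthest from the SREBF1 or INSIG1 median. With ELOVL6, r was -0.83 within low stress, a group without them, and -0.54 within high stress. Low stress animal 1 was the highest of its group for SREBF1, at 7.90, and the lowest for ELOVL6, at 8.54. The r within low stress was not computed without it. For each of the 5 genes the adjusted p of r was also above 0.05, at 0.063 to 0.338, when low stress animal 1, high stress animal 6 or high stress animal 7 alone was left out.

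On the deposited scale ME1 and INSIG2 had no pair with another of the 8 genes at an adjusted permutation p under 0.05. After median centring of the arrays ME1 did, with INSIG1 (r = 0.66, adjusted permutation p 0.018), SCD (0.62, 0.024) and FASN (0.60, 0.025). The r of ME1 with INSIG1 was 0.38 (rho 0.39, adjusted permutation p 0.227 and 0.248), and the r of INSIG2 with SCD was -0.48 (rho -0.47, adjusted permutation p 0.107 and 0.195). Of the 31 pairs, 15 had an adjusted p under 0.05 for r, and 17 did once set means were subtracted. For rho fewer did, with or without the set means. They were the pairs among INSIG1, SCD and FASN, and INSIG1 and SCD with the sterol synthesis mean given below. No such count was made for other genes of the array.

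Genes of sterol synthesis, which SREBP-2 controls and which also answer to INSIG1, gave a comparison outside lipogenesis. The mean log2 signal of the 10 measured enzymes correlated with INSIG1 at r = 0.83 (rho 0.87, adjusted permutation p 0.0009 and 0.0006), and at 0.71 without animals 6 and 7. The same mean correlated with SCD at 0.73 (rho 0.66, adjusted permutation p 0.006 and 0.039) and at 0.58 without them. With SREBF1 it correlated at -0.72 (rho -0.47, adjusted permutation p 0.009 and 0.195), and at -0.52 without them. Without low stress animal 1 the adjusted p of this last relation was 0.051. Within low stress the r of the mean with INSIG1, SCD and SREBF1 was 0.57, 0.25 and -0.82. Within high stress it was 0.84, 0.81 and -0.68.

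Among 5454 named genes, those most like INSIG1 over the 16 animals, with set means subtracted, were ARMC6 (r = 0.91), MRPS27 of the mitochondrial ribosome (0.87), the adaptor GRB2 (0.87), the squalene synthase FDFT1 (0.87) and WDR37 (0.85). FASN, TM7SF2 and SCD ranked next. For SCD they were the sterol reductase TM7SF2 (0.85), FASN (0.85), INSIG1 (0.83), the chloride channel CLIC1 (0.83) and ARMC6 (0.83). For SREBF1 they were the Golgi SNARE GOSR1 (0.91), the septin SEPT4 (0.89), LSM12 (0.79), MRPL35 of the mitochondrial ribosome (0.77) and the deacetylase HDAC6 (0.77), with none of the enzymes of fatty acid synthesis among them. FADS1, FASN, SCD and ELOVL6 lay near the opposite end for SREBF1, at ranks 7224 to 7262 of 7271 named probe sets. Their r was -0.64 to -0.73, while ME1 ranked 3861. These values rank genes and carry no test.

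The wider pathways around the genes were counted in the same fit, and 0 of their genes were called, with or without the spike-in set as a block. Over all 5455 genes tested, with 1 probe set each, 2739 had a higher mean in high stress, 2716 a lower one, and the median difference was 0.00. Of 14 genes of the SREBP processing machinery 7 were tested, 5 higher and 2 lower, with a median of 0.04. Beside the INSIGs they included LMNA (0.22) and the sterol-regulating SREBF2 (0.16). Of 17 lipogenic transcription regulators 7 were tested, 5 higher and 2 lower (median 0.06), with the E-box factor USF2 at -0.26.

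In the fatty acid synthesis list 10 of 16 genes were tested, 9 with higher and 1 with lower means in high stress, and a median of 0.13. PDHA1 of pyruvate dehydrogenase stood at 0.18 (SE 0.09) and the acetyl-CoA synthetase ACSS2 at 0.17, beside FASN and ME1. In the elongation and desaturation list 12 of 23 were tested, 7 higher and 5 lower (median 0.11). Beside SCD, ELOVL6 and FADS1 it held the elongase ELOVL1 (0.23) and HSD17B12 (0.14). All 5 tested genes of cytosolic NADPH supply, of 7, had higher means (median 0.08), with transketolase, TKT, at 0.16. None of the genes newly named for these 3 lists had an unadjusted p under 0.05.

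Pathways downstream of fatty acid synthesis or opposed to it were counted in the same way. Of 17 genes of glycerolipid synthesis 10 were tested, 8 higher and 2 lower (median 0.04), with the acyltransferase GPAM at -0.28 and the phosphatidate phosphatases LPIN2 and LPIN1 at 0.27 and 0.21. Of 8 genes of AMPK, the kinase that inhibits acetyl-CoA carboxylase, 7 were tested, 5 higher and 2 lower (median 0.09), with the catalytic subunits PRKAA2 at 0.19 and PRKAA1 at 0.16. Of 20 genes of fatty acid oxidation 17 were tested, 5 higher and 12 lower (median -0.05), among them the thiolase ACAA2 (-0.20), the isomerase ECI1 (-0.15) and the carnitine carrier SLC25A20 (0.12).

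The sterol synthesis list had the highest median of the lists counted, at 0.37. Of 23 enzymes 10 were tested, all 10 with higher means in high stress, 5 of them with an unadjusted p under 0.05 in limma. Of all 5455 genes, 1.65% had such a p with a higher mean in high stress. HSD17B7 differed by 1.08 (SE 0.27), TM7SF2 by 0.59, the farnesyl diphosphate synthase FDPS by 0.51 and the squalene epoxidase SQLE by 0.45. The median of the 8 lipogenic and INSIG genes was 0.25. These counts and medians describe the lists and test nothing about them.

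**Figure D5:**
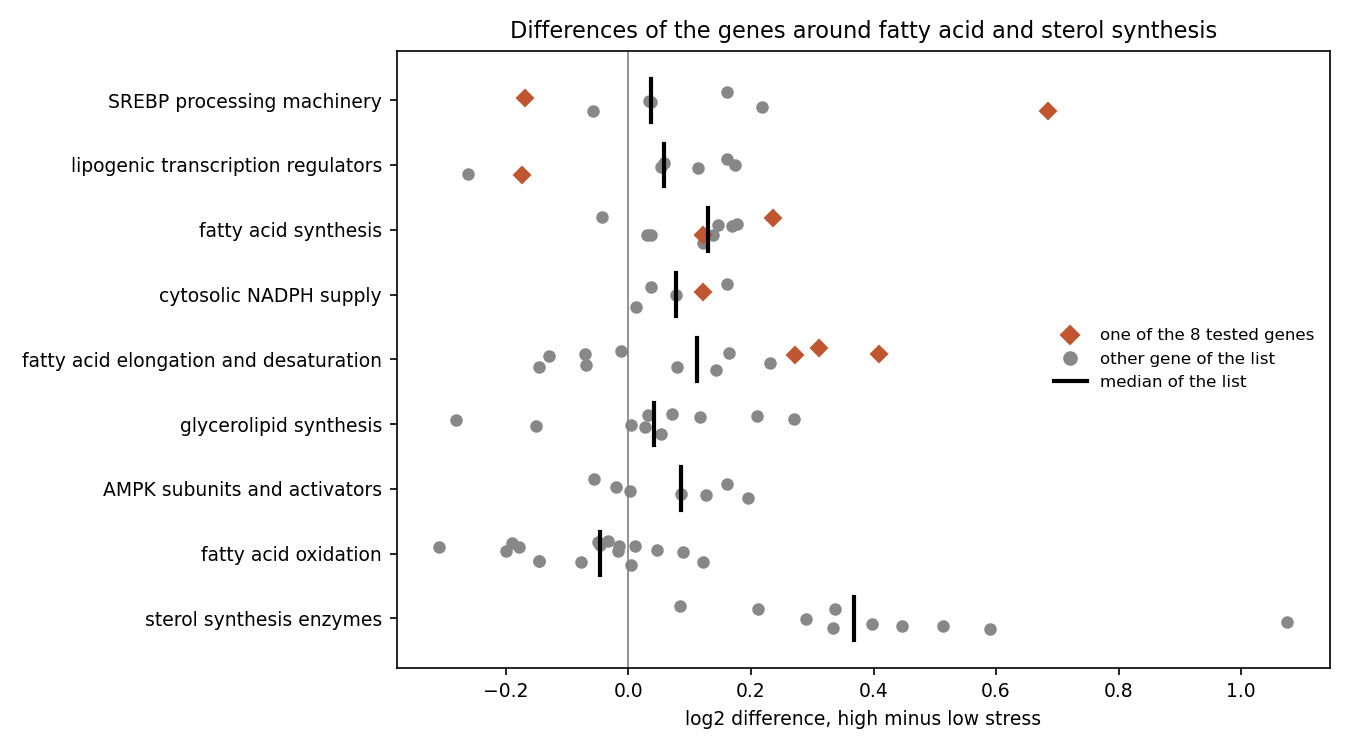
Log2 difference, high minus low stress, of each tested gene (points) in 9 lists around fatty acid and sterol synthesis, with the list's median (vertical bars) and the 8 tested genes as diamonds. The 10 sterol enzymes lie above 0 with a median of 0.37, fatty acid synthesis has a median of 0.13 and fatty acid oxidation one of -0.05.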

How the data were processed

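The authors deposited linear intensity values of the Affymetrix porcine array, and the submitters' processing notes name Affymetrix Expression Console 1.1.1 and MAS5 (no version) for them. Detection calls were not used. Signals were taken to log2, 124 controls were left out, and 10069 of 23999 probe sets had 1 gene symbol, 198 several and 13732 none. Means below the 40th percentile of the array (6.15 in log2, 71.1 in signal) kept a probe set out of the tests. The stress groups were fitted by lmFit and eBayes of limma 3.58.1 (R 4.3.3), two-sided, on all 14399 probe sets left, with Benjamini-Hochberg adjustment and a threshold of 0.05. The fit was first tested on simulated data with independent noise in each probe set. Those data held no spike-in set effect and no correlation between genes, so they do not cover these features of the arrays. The number of arrays limits the precision.

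Correlations used 100000 permutations in Python 3.11.15, two-sided, with adjustment over 31 pairs. The lists of genes and members, and the spike-in sets, were chosen with earlier results of these data known. The text names all probe sets of the 10 genes, the 2 to 4 genes with the smallest p in each list and the 5 most alike to INSIG1, SREBF1 and SCD; marker genes come from the cell type lists. Alternatives covered the filter, scaling, pseudocount, prior, weights, blocks, covariates, other probe sets and each animal left out.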

Additional observations from a re-analysis of the deposited data

Results flagged for a closer look

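Of 26 groups of 8 animals (13 probe sets in each stress group), 2 held an animal whose gap to its nearest neighbour exceeded Dixon's 95% critical share of the group's range, where chance gives about 1 in 20. For SREBF1, low stress animal 1 stood above the other 7 at 7.90, the highest value of all 16 animals. Without it the SREBF1 difference was -0.08, and the correlation of SREBF1 with INSIG1 no longer passed. For the third brightest ELOVL6 probe set, low stress animal 4 stood below the others at 5.06, while on the brightest ELOVL6 probe set the same animal was at 9.12, inside its group.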

How the results depend on the processing

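No gene of the 8 was called under any alternative run. The number of probe sets called on the whole array was 0, with 0 to 0 when each animal was left out in turn. It was 1 with the spike-in set as a block, 1 with the set and the actin ratio, 1 with quantile normalization and the set, and 2 with median centring and the set. The INSIG1 difference ranged from 0.33 to 1.04 over its alternatives (adjusted p 0.476 or higher with limma), SCD from 0.25 to 0.48 and SREBF1 from -0.24 to -0.00, all with their directions kept. FASN reversed on 2 other probe sets (-0.34 and -0.029) and in the mean of its probe sets (-0.028). INSIG2 reversed within the high-spike set (0.16) and without high stress animal 1 (0.020; range -0.28 to 0.020 with each animal left out). The median difference of all probe sets was -0.03, -0.00 after quantile normalization and 0.04 after median centring. With these, probe sets at an unadjusted p under 0.05 numbered 183 higher and 277 lower, 240 and 185, and 318 and 126. The 60th percentile filter left out SREBF1 and INSIG2, so it gives no value for them.

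The INSIG1 and SREBF1 correlation was -0.52 after quantile normalization and -0.50 after median centring, neither passing, and -0.72 to -0.41 with each animal left out. That of SREBF1 and SCD was -0.50 and -0.46, neither passing, and -0.77 to -0.42. That of SREBF1 and FADS1 was -0.40 and -0.44, neither passing. Pairs that passed only under another scaling or with set means subtracted were ME1 with INSIG1, SCD and FASN (median centring), and ELOVL6 with SCD (0.68) and with FADS1 (0.68) for the set means. Weak correlations changed sign: SREBF1 and ME1 at -0.13 (median centring; -0.018 to 0.097 with each animal left out), SREBF1 and INSIG2 at -0.15 (quantile) and -0.095 (median centring; -0.11 to 0.41 with each animal left out), FADS1 and ME1 at -0.14 (quantile; -0.059 to 0.094), ELOVL6 and INSIG2 at -0.17 (set means subtracted), and the correlation of ME1 and INSIG2 between animals at -0.25 (set means) and -0.0076 (median centring). The cause was not tested. The blocks by set combined with another scaling, the 8 matched pairs as a block, the other FASN probe sets in correlations, the omission of animals 6 and 7 together and the leave-one-out correlations were added after the data were seen. The labels pair no animals, and the matched block of 8 pairs by first digit and spike-in set changed no call among the 8 genes.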
